A study of Mus musculus with 6 samples.

Results

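The regions described here were 6426 peaks of p53 binding that the authors called in irradiated mouse splenic B cells, out of 24507 peaks in that list and of 48115 over the 5 lists of the series. They lay within 1 kb of the start of a protein-coding transcript, had a deposited value below 100, overlapped a peak of irradiated non-B cells by at least 1 bp, and overlapped no peak of unirradiated B cells, of unirradiated non-B cells or of irradiated spleen without p53. Of the 24507 peaks, 8061 had their midpoint within 1 kb of a start, 7969 of those had a value below 100, and 6647 of those overlapped a non-B cells peak. Overlap with a B cells mock peak removed 191 of these and overlap with a non-B cells mock peak 83, while the Trp53-/- list overlapped 1 and removed none that the mock lists had left. The Trp53-/- list held only 83 peaks, 21 of them with the midpoint within 1 kb of a start, so it could remove few. Whether sites of antibody background went uncalled in it was not tested. The values, the overlaps and the position therefore chose the regions, and are given as descriptions. They are called weaker shared irradiation-only peaks.

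The measurement was ChIP-seq of p53, deposited as lists of regions where DNA fragments recovered with an antibody against p53 (NCL-p53-CM5p) pile up in sequencing. C57/Bl6 mice aged 8 weeks with the genotype Trp53+/+ were left untreated (mock) or were examined 4 h after 7 Gy of whole-body irradiation (IR), and the fifth list came from total spleen of Trp53-/- mice treated in the same way, whose age the labels do not give. B cells were taken from the spleen with beads against the surface marker B220, and non-B cells were what passed the column, a T cell-enriched remainder. Per the methods, chromatin was pooled over several animals, each group had 1 library, and a further library of input chromatin was not used here as a list. A spread between replicates was therefore not to be had for any group, and all intervals given are 95% intervals that cover counting error over peaks or genes alone.

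p53 is a transcription factor that DNA damage stabilises. It binds as a tetramer to a response element made of a pair of decamers, each with a central C and G that make the strongest contacts, and it activates genes of cell cycle arrest, apoptosis and DNA repair. The element is called unsplit where the decamers adjoin and spaced where a few bases part them. The start sites of mammalian genes fall into CpG-rich ones, which belong mostly to genes that every cell uses and hold sites for factors of the ETS family, NRF1, YY1 and NF-Y, and CpG-poor ones, which belong more often to genes of a single cell type.

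The first sequences shown are the unsplit elements with the fewest mismatches to the p53 consensus among the weaker shared irradiation-only peaks, since they show what the best match in this set looks like. They are printed 5′ to 3′ on the strand of the gene, from mm9 (NCBIM37), with the required C and G of each decamer in capitals; Eng and Mthfd1 lie on the plus strand and the others on the minus strand. Pde7a, whose product degrades cyclic AMP, had the one element without a mismatch, at chr3:19165151-19165170. The other elements had 1 mismatch. Eng codes for the receptor endoglin (chr2:32502570-32502589), Esco2 for an acetyltransferase of sister chromatid cohesion (chr14:66453824-66453843), Traf4 for a signalling adaptor (chr11:77979903-77979922), Calhm2 for a calcium homeostasis modulator (chr19:47212941-47212960), Mthfd1 for an enzyme of folate metabolism (chr12:77356077-77356096) and Ube2v2 for a ubiquitin-conjugating enzyme variant (chr16:15595390-15595409).
Pde7a: aggCatGtttgggCtaGcct
Eng: gaaCaaGcccaggCtaGacc
Esco2: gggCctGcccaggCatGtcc
Traf4: gggCaaGccagggCttGttt
Calhm2: gggCaaGcctaggCaaGatc
Mthfd1: aaaCttGctcagaCagGccc
Ube2v2: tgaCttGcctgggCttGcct

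The second set are 30 bases around promoter motifs, each from the start site whose nearest peak had the highest B cells IR value among those that hold the motif, printed on the strand of the gene with the motif, or its reverse complement, in capitals. They show sequence that was more frequent at these start sites than at CpG-rich start sites without a peak. Positions are of the motif's centre relative to the start, negative upstream. Ttpal held the ETS motif at −14 bases (chr2:163428270-163428299, plus strand), Mbd6 the NRF1 motif at −64 bases (chr10:126726123-126726152, minus strand), Noxo1 the YY1 motif at −168 bases (chr17:24832997-24833026, plus strand), Kbtbd7 the ZNF143 motif at −182 bases (chr14:79826122-79826151, plus strand) and Nprl3 a CGCG palindrome at 43 bases (chr11:32167649-32167678, minus strand).
Ttpal: gggggcgaagaCCGGAAGTaggggccttgg
Mbd6: ggcgcgctccCGCATGCGCactgcgtcccc
Noxo1: cgctgggcgcCGCCATCTTgctggcgtgcg
Kbtbd7: ggttatgtaaACTACAATTcccaagatgca
Nprl3: ctcggcgaagTCTCGCGAGagtgagcgccg

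The third set are stretches just before the start at the extremes of CpG content, with each CpG in capitals. Lrrc68 (chr7:20147748-20147897, minus strand) had the highest ratio of observed to expected CpG over the 600 bases around a start, 1.26, and this stretch held 14 CpGs. Trim30a (chr7:111613708-111613857, minus strand), a gene of the interferon-induced tripartite motif family, had a ratio of 0 and held none. Both had a peak of the set at the start, with values of 25.2 in B cells IR against 35.3 in non-B cells IR at Lrrc68, and of 81.3 and 80.8 at Trim30a.
Lrrc68: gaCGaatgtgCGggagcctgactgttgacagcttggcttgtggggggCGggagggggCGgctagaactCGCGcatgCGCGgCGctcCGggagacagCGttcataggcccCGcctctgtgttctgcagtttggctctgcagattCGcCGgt
Trim30a: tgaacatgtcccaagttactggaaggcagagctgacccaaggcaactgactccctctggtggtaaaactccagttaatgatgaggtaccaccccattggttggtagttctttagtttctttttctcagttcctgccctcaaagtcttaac

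The deposited value of a peak is a −log10 p given by the peak caller. Among the 25 most frequent values of the B cells IR list, 21 matched, within 0.006, the −log10 of the Poisson probability of more than a whole number of reads at a single background of 2.03 reads, and 20 of 25 did so in non-B cells IR at 2.02 reads. At those backgrounds a value of 10 stands for more than 16 reads, a value of 20 for more than 25 and a value of 100 for more than 82. The mock lists matched less well, 9 of 25 in each, at backgrounds of 0.595 and 0.535 reads, which were 3.41 and 3.77 times lower. A peak missing from a mock list may therefore have been bound and not called, and the part of that difference in the selection of the set was not tested. In the Trp53-/- list only 4 of 25 values matched, so the fit did not show its scale, and its values are not used here.

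The weaker shared irradiation-only peaks had modest values that were similar in both cell populations. In B cells IR they ran from 5.27 to 99.99 with a median of 21.41, with an interquartile range from 14.51 to 31.07. In non-B cells IR the overlapping peaks ran from 5.27 to 476.6 with a median of 21.8. Both values were at least 30 for 1270 peaks and below 10 for 106, and 401 had a B cells value of at least 50. Spearman's rho between both values was 0.732 over the 6426 peaks, which share their libraries and were chosen for overlap, so it is a description. The median width was 369 bp for the B cells peaks and 338 bp for their non-B partners.

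**Figure D1:**
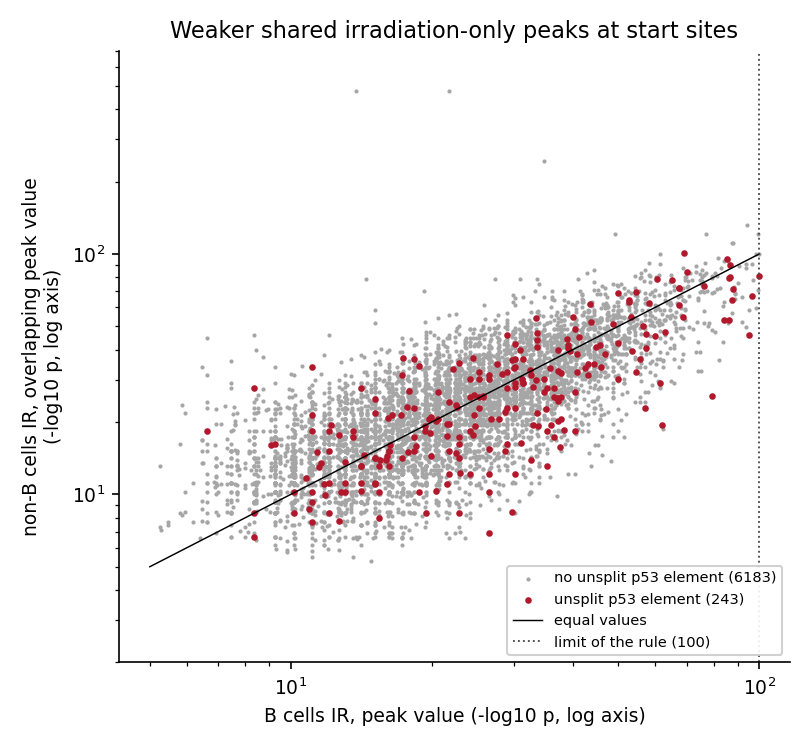
Value (−log10 p) of each of the 6426 weaker shared irradiation-only peaks in B cells IR (x axis, log scale) against the value of the overlapping peak in non-B cells IR (y axis, log scale). Red points are the 243 peaks with an unsplit p53 element, the line marks equal values and the dotted line the limit of 100. The points follow the line with a wide spread, the red points lie among the grey ones, and 3 points stand above 200 in non-B cells IR.

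Overlap with a non-B cells peak was part of the rule, so the agreement in place is given as a description. The B cells and non-B cells midpoints were a median of 32 bp apart, 66.5% were at most 50 bp apart and 96.3% at most 200 bp. When the rule was applied from the side of the non-B cells list, 6501 non-B peaks passed, and 6379 of the 6426 peaks (99.3%) overlapped one of these. The 6426 peaks met 6342 distinct non-B cells peaks, since 162 shared a wide non-B cells peak with another.

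The limit of 100 cut through a continuous range. Where a pair of values follows a gene, the first is the B cells IR value and the second the non-B cells IR value. Just below it lay the peaks at Eng (99.99 in B cells, against 81.17 in non-B cells), Bloc1s2, which codes for a subunit of a complex of lysosome-related organelles (99.64 and 99.84), and Reep2, which codes for a protein that shapes the endoplasmic reticulum (99.49 and 70.72). Just above it lay those at Rrm2, the small subunit of ribonucleotide reductase (100.78 and 59.11), Rexo2, an oligoribonuclease (101.61 and 105.06), and Morc3, a chromatin ATPase (101.61 and 125). Only 54 peaks at or above 100 met the rest of the rule. Of the 6426 peaks, 12 had a non-B cells value of 100 or more. The highest belonged to the pair of peaks at Pdcd6ip, an adaptor of the ESCRT membrane machinery, with 21.74 and 13.81 in B cells IR, which shared 1 wide non-B cells peak of 476.65, and to Zfp809, a zinc finger repressor, with 34.7 and 242.54. At Zfp809 both peaks met only at their ends.

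A few start sites ranked far apart between both populations. Ranks are given as percentiles among the 6426 peaks. The peaks that ranked higher in B cells IR by the most were at Mob4, a kinase regulator (36.92 against 9.81, percentiles 83.7 and 6.73), Marcksl1, an actin-binding protein (40.44 against 12.13, percentiles 87.4 and 15.7), Hsd11b1, a glucocorticoid-activating enzyme (48.33 against 13.72, percentiles 92.8 and 21.8), St8sia6, a sialyltransferase (30.13 against 8.36, percentiles 73.6 and 2.93), and Cd79b, a signalling chain of the B cell antigen receptor (43.81 against 13.13, percentiles 90.1 and 19.5). Those that ranked higher in non-B cells IR by the most were at B4galnt1, a ganglioside-forming enzyme (6.62 against 44.59, percentiles 0.521 and 89.6), Mnt, a MAX-binding repressor (8.33 against 45.96, percentiles 2.68 and 90.8), Atg7, an autophagy enzyme (8.41 against 39.92, percentiles 3.14 and 85.7), Ssh2, a cofilin phosphatase (7.46 against 35.88, percentiles 1.35 and 81), and Ube2m, the NEDD8-conjugating enzyme (8.72 against 37.19, percentiles 3.6 and 82.8). At B4galnt1, Mnt, Ssh2 and Ube2m the same non-B cells peak also overlapped another B cells peak of the set, with B cells IR values of 51.4, 44.48, 39.47 and 37.19, so that only Atg7 of these 5 had a single B cells peak under its non-B cells peak. With 1 library per population these gaps have no replicate check.

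Within the window of 1 kb that the rule allowed, the peaks sat on the start site itself. The midpoint was a median of 85 bp from the nearest start and 55.1% (53.9 to 56.3%) lay within 100 bp. It was upstream of the start in 65.7% (64.5 to 66.8%), with a median position of −37.5 bp (negative upstream), and the 100 bp just before the start held 35.8% of all midpoints. The B cells peak covered the start in 76.1% of cases, and both peaks did so in 72%. By GENCODE vM1 the midpoint lay between genes in 46.5%, in a UTR in 26.9%, in an intron in 19.1%, in a coding exon in 4.15% and in a noncoding exon in 3.38%.

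This position differed from that of the other peaks at start sites. The 54 stronger peaks had a median distance of 407.5 bp, and 11.1% lay within 100 bp, which was 44 percentage points lower than in the weaker set (interval −50 to −32.9). Their midpoints were upstream in 46.3%, 19.4 points lower (−32 to −6.21), and in an intron in 48.1%. The 1315 peaks below 100 without a non-B cells overlap had 34.1% within 100 bp, 21 points lower (−23.8 to −18.1), at a median value of 10.52. The 266 peaks at start sites that overlapped a mock peak had 39.1% within 100 bp, 16 points lower (−21.8 to −9.92). The median width was 369 bp in the weaker set, 1026 bp for the stronger peaks, 635 bp for those overlapping a mock peak and 224 bp for those without a non-B cells overlap. In the same order the median B cells IR values were 21.41, 129, 36.84 and 10.52. The part of width and value in the difference in position was not tested.

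**Figure D2:**
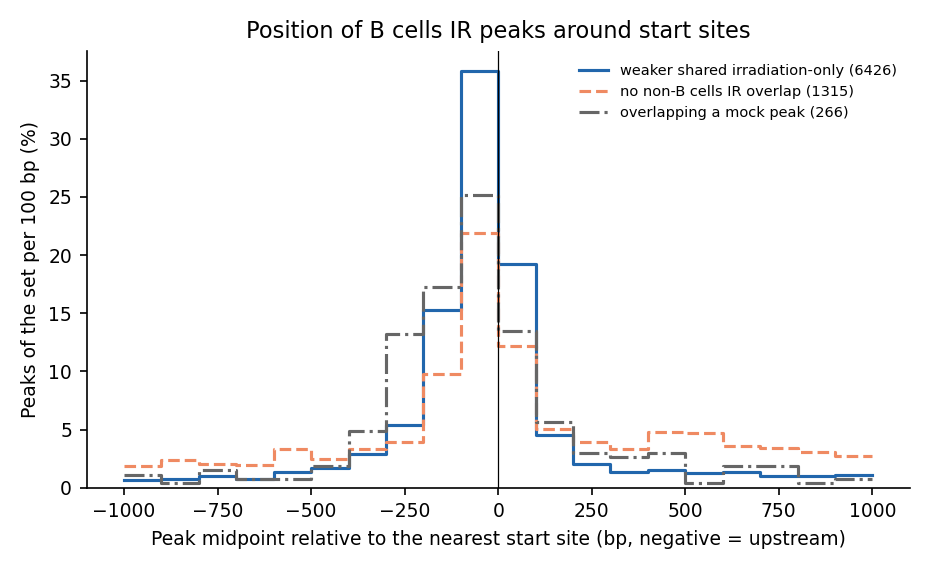
Position of the peak midpoint relative to the nearest protein-coding start site (x axis, bp, negative upstream) as the percentage of peaks of each set in steps of 100 bp (y axis). The solid line is the 6426 weaker shared irradiation-only peaks, the dashed line the 1315 peaks without a non-B cells IR overlap and the dash-dotted line the 266 peaks that overlap a mock peak. The solid line reaches 35.8% in the 100 bp before the start, higher than both others.

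The p53 response element was rare in this set. An unsplit element with at most 3 mismatches and all required C and G bases was found within 300 bp of the midpoint in 243 of 6426 peaks, or 3.78% (3.34 to 4.28%). The same windows moved by 10 kb gave 3.1%, a difference of 0.683 percentage points (0.0519 to 1.32). A spaced element alone, with 1 to 15 bases between the decamers, was found in 30.2% at the peaks and in 34.4% of the moved windows, a difference of −4.19 points (−5.81 to −2.58). Neither form was found in 66.1%. With at most 2 mismatches the unsplit share was 1.03% against 0.763%, a difference of 0.264 points (−0.0639 to 0.598), whose interval includes 0. Within 100 bp of the midpoint it was 1.68% (1.39 to 2.03%) at the peaks and 1.04% (0.822 to 1.32%) in the moved windows.

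Windows moved by 10 kb differ from start sites in base composition, so the start sites of genes without any B cells IR peak within 1 kb were scanned as well. Within 300 bp of the start an unsplit element was found for 3.02% of the genes with a peak of the set, for 2.45% of the genes without a peak and for 2.71% of all protein-coding genes. The difference from genes without a peak was 0.568 points (0.102 to 1.07). Among CpG-rich start sites alone, which are defined with the classes of CpG content, it was 2.86% against 1.96%, a difference of 0.9 points (0.237 to 1.55). Genes with a peak of the set were scanned at the start nearest to it, the others at the first start of the gene. The part of this choice in the differences was not tested.

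In 3 of the 4 other sets of irradiation peaks the element was found more often. It was found in 23 of the 54 stronger peaks, or 42.6% (30.3 to 55.8%), which was 38.8 points above the weaker set (26.5 to 52.1). With the element sought within 100 bp of the midpoint only, that difference was 20.5 points (11.5 to 33.3). Weaker shared irradiation-only peaks over 1 kb from a start, 9789 with a full window, had it in 21.4%, 17.6 points more (16.6 to 18.5). They met the same limits on value and overlap, but their median B cells IR value was 25.25, against 21.41 in the set at start sites. The part of value in this difference was not tested. Peaks at start sites that overlapped a mock peak had it in 10.2%, 6.37 points more (3.25 to 10.6). That set had no limit on value and no condition on non-B cells overlap, and its B cells IR values had a median of 36.84 and reached 326.4. For the peaks at start sites without a non-B cells overlap the share was 4.49%, and the interval of the difference ran from −0.404 to 2.04 points.

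**Figure D3:**
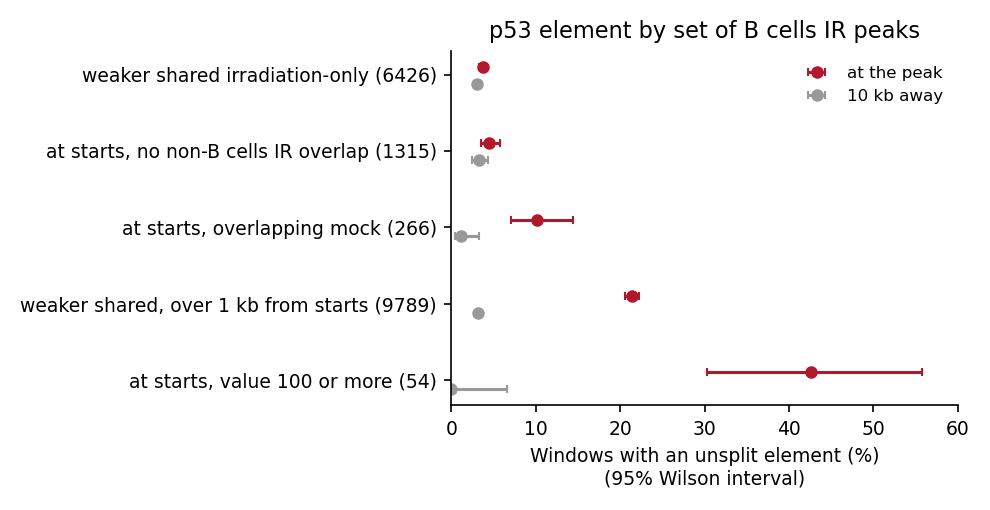
Percentage of 600 bp windows with an unsplit p53 element (x axis) for 5 sets of B cells IR peaks, with the number of windows in brackets and 95% Wilson intervals as bars. Red points are windows at the peak and grey points the same windows moved by 10 kb. The weaker shared peaks at start sites stand at 3.78% against 3.1%, whereas those over 1 kb from a start stand at 21.4% and the stronger peaks at start sites at 42.6%.

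The 243 peaks with an unsplit element tended to lie further from the start than those without one. Their midpoints were a median of 136 bp from it, against 86.5 bp with a spaced element only and 83 bp with neither form. The share with the element was 2.83% for midpoints within 50 bp and 6.05% (4.99 to 7.32%) for those more than 200 bp away. Moved windows were not split by distance, so these shares have no background beside them. The median value of the 243 peaks was 26.75 in B cells IR against 23.19 in non-B cells IR, against 20.6 and 21.19 for peaks with neither form. In 4 equal groups by non-B cells value, from the lowest to the highest, the element share was 3.24, 3.67, 3.18 and 5.04%. Only 15 peaks (0.233%) had an element with 0 or 1 mismatch, against 9 of the windows moved by 10 kb (0.14%). The difference was 0.0933 points (−0.0627 to 0.259), an interval that includes 0.

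These 15 included the elements printed above. The Pde7a peak, with the exact element at −152 bp from the start, had values of 28.68 in B cells IR against 22.07 in non-B cells IR. Of those with 1 mismatch, the highest values besides Eng were at Esco2 (86.65 and 89.92), Traf4 (86.33 and 53.29), Calhm2 (84.11 and 52.93), Rab40c, a small GTPase of the Rab family (65.23 and 78.09), Mthfd1 (60.58 and 78.98), Ube2v2 (54.57 and 32.38), Pmm1, a phosphomannomutase (53.45 and 39.47), and Prps2, an enzyme of nucleotide synthesis on chromosome X (45.85 and 34). The elements of Esco2, Traf4 and Ube2v2 lay at −1002, −821 and −782 bp from the start, that of Rab40c at 511 bp and that of Pmm1 at 1131 bp.

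The set reached a large share of all genes. Of 22378 protein-coding genes, 6631 had such a peak within 1 kb of a start, or 29.6%, and this is the background for the gene counts that follow. Any B cells IR peak within 1 kb was found at 7711 genes (34.5%), of which 86% had a peak of the set. At 654 genes there were 2 or more such peaks, and 907 peaks (14.1%) lay within 1 kb of the starts of 2 or more genes, so that genes are not independent of each other.

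The start sites were CpG-rich. A start site was placed in the high CpG class where a stretch of 500 bp from 700 bp before to 300 bp after it had at least 55% GC and a ratio of observed to expected CpG of at least 0.75, and in the low class where no stretch reached 0.48. Of the genes with a peak of the set, 74.3% (73.2 to 75.4%) were in the high class, against 41.1% of all protein-coding genes and 24.7% of the genes without a B cells IR peak. The difference from the latter was 49.6 points (48.3 to 50.9). The low class held 6.95% of the genes with a peak of the set and 53.3% of those without a peak. Counted the other way, 53.6% of the genes of the high class had a peak of the set, 26.3% of the intermediate class and 5.45% of the low class. The peak values differed little between classes, with medians of 21.6 in B cells IR against 22.9 in non-B cells IR for the high class and 25.1 and 20.7 for the low class.

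By the ratio of observed to expected CpG over 600 bp, the highest start sites were at Lrrc68 (1.26), Impa1, an inositol phosphatase (1.24), and 5830433M19Rik (1.22), with B cells IR values of 25.2, 20.6 and 14.3. The lowest, each with no CpG in 600 bp, were at Gm14446, Trim30a and Tex14, a gene of germ cell intercellular bridges, with B cells IR values of 21, 81.3 and 20.4. Peaks of the set were thus present at both ends of the range.

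Genes that face another gene across a shared promoter were frequent. A start of another protein-coding gene on the opposite strand, within 1 kb upstream, was found for 20.7% of the genes with a peak of the set, for 8.82% of all genes and for 3.25% of those without a B cells IR peak. Within the high CpG class, 74% of the genes with such a divergent neighbour had a peak of the set and 49.3% of those without one, a difference of 24.7 points (22.3 to 27.1). Since 1 peak can serve both genes of a pair, such genes are counted from fewer peaks.

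Genes on chromosome X had such a peak less often than autosomal genes, 14.7% against 30.3%. Within the high CpG class it was 37.1% of 202 genes on X and 54% of 8985 genes on the autosomes, a difference of 16.9 points (9.95 to 23.3). Over the autosomes the share ran from 24.2% (chromosome 14) to 34.8% (chromosome 16). The mitochondrial chromosome held 9 of the 6426 peaks, with B cells IR values from 14.44 at mt-Co1 to 41.33 at mt-Nd5, and these overlapped only 2 non-B cells peaks, of 78.75 and 70.15.

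Motifs of promoter-binding factors were counted on both strands in the 600 bp around the start. Because CpG-rich sequence holds many of these letters anyway, the genes with a peak of the set were compared with genes without a B cells IR peak within the high CpG class, 4927 against 3620 genes. The ETS motif (CCGGAAGT, in 6.34% of all protein-coding start sites) was found in 16.5% against 4.61%, a difference of 11.9 points (10.7 to 13.2). The NRF1 motif (GCGCATGCG, 2.65% of all) was found in 7.43% against 2.87%, the YY1 motif (AAGATGGCG, 3.21% of all) in 8% against 3.84%, and the NF-Y motif (AGCCAAT, 11.4% of all) in 14.1% against 9.86%. The ZNF143 motif (ACTACAATT, 0.595% of all) was found in 1.08% against 0.11%, and the palindrome TCTCGCGAG (1.14% of all) in 3.45% against 1.1%. The intervals of these differences lay above 0.

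Further motifs differed in the same direction, with intervals above 0 for the first 5. The E-box (CACGTG, 11.9% of all) was found in 17.8% against 13.9%, the CRE (TGACGTCA, 2.83% of all) in 5.32% against 3.59%, the cell cycle homology region (TTTGAA, 26% of all) in 17.2% against 12.6%, the PU.1 motif (GAGGAAGT, 5.06% of all, which shares GGAAGT with the ETS motif) in 4.26% against 2.65%, and the NF-kB motif (GGGANTTCC, 3.01% of all) in 3.82% against 2.43%. For the E2F motif (TTCCCGC, 11% of all) it was 19.5% against 18.8%, with a difference of 0.748 points (−0.947 to 2.42). For the AP-1 motif (TGANTCA, 11% of all) and for TATAAA 40 to 20 bases before the start on the strand of the gene (2.26% of all) the intervals also included 0. The GC box of the SP factors (GGGGCGGG, 27.8% of all) went the other way, with 42.2% against 57.5%, a difference of −15.3 points (−17.4 to −13.2).

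Some directions turned when the CpG class was left out of account. Over all genes the GC box was found in 37.6% of those with a peak of the set and in 22.5% of those without a peak, and TTTGAA in 19.7% and 29.2%. The motif counts for genes with a peak were made at the start nearest to the peak, and for the others at the first start of the gene. With the first start used for every gene, the ETS difference was 11.7 points and the GC box difference −14.3 points.

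**Figure D4:**
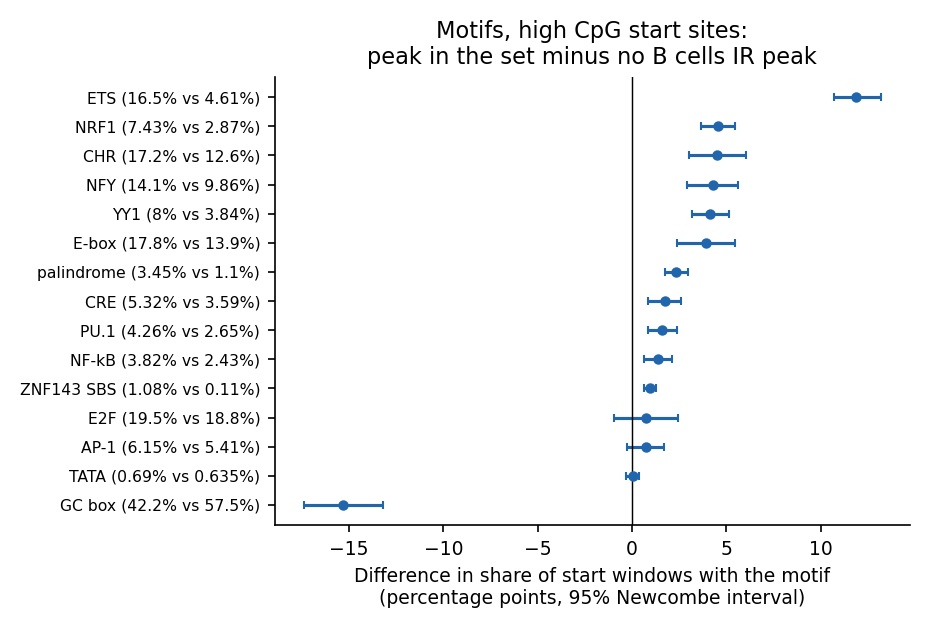
Difference in the share of start sites that hold each motif (x axis, percentage points) between genes with a weaker shared irradiation-only peak and genes without a B cells IR peak, within the high CpG class, with 95% Newcombe intervals as bars. The shares behind each difference are given beside the motif's name, and the palindrome is TCTCGCGAG. The ETS motif stands furthest to the right at 11.9 points and the GC box furthest to the left at −15.3 points.

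Among the 461 genes of the low CpG class with a peak of the set the PU.1 motif differed most. The PU.1 motif, bound by a factor of B cells and myeloid cells, was found in 16.3% against 6.49% of the 7811 low class genes without a B cells IR peak, a difference of 9.78 points (6.64 to 13.5). The NF-kB motif was found in 4.99% against 2.18% (difference 2.81 points, 1.13 to 5.22) and the GC box in 9.98% against 4.49% (difference 5.48 points, 3.02 to 8.59). TATAAA was found in 1.74% against 4.7%, a difference of −2.96 points (−3.95 to −1.25). The E-box was found in 9.98% against 6.29% (difference 3.69 points, 1.21 to 6.81), as in the high class in direction. TTTGAA went the other way from the high class, with 31.9% against 38%, a difference of −6.15 points (−10.4 to −1.63). The ETS motif (1.74% against 0.819%, difference 0.916 points, 0.0333 to 2.58) and the NRF1 motif (0.651% against 0.128%, difference 0.523 points, 0.0803 to 1.77) were rare in both.

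The genes themselves were grouped by lists, and each count is read against the background of 29.6%. In most lists the genes with a peak were mainly in the high CpG class, over which the share was 53.6%. Some lists lay near that share, such as cyclins and cyclin-dependent kinases (52.3%), arrest and feedback targets (55%) and Rab and Vps genes (50%). Their 95% intervals included 53.6%. So did those of DNA replication (51.6 to 79%), mitosis (45.5 to 78.1%), apoptosis (38.7 to 78.1%), repair targets (49.7 to 91.8%) and initiation factors (52.7 to 76.4%). The intervals of the lists of E2F, Rb and DREAM, Atg genes, chaperones, chromatin enzymes, histones and ubiquitin-conjugating enzymes included it as well. Values are those of a gene's peak of the set nearest to a start, and its other peaks are not given. Among genes of protein synthesis the share with a peak of the set ran from 65.5% (initiation factors) to 95% (tRNA synthetases). Of 20 tRNA synthetase genes, 19 had a peak of the set, led by Cars (70.31 in B cells, against 73.5 in non-B cells) and Mars (53.63 and 52.45), which charge the transfer RNAs of cysteine and methionine. Of 82 cytosolic ribosomal protein genes 70 had one, led by Rpl7 (80.55 and 83.67) and Rpl3 (64.73 and 81.41) of the large subunit. The mitochondrial ribosome had one at 56 of 76 genes, led by Mrpl47 (62.9 and 67.48) and Mrpl50 (61.47 and 47.72), and the translation initiation factors at 38 of 58, led by Eif3f (64.42 and 69.76) and Eif4a2 (59.12 and 50.65). Over the ribosomal protein genes with a peak the median was 28.3 in B cells IR against 31.6 in non-B cells IR.

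Genes of respiration, transcription, splicing and protein turnover were covered in a similar way. Respiratory complex I, which passes electrons from NADH to ubiquinone, had a peak of the set at 35 of 37 genes, led by Ndufb5 (62.9 and 67.48, the peak it shares with Mrpl47) and Ndufs1 (46.88 and 34.7). RNA polymerase II, its general factors and Mediator had one at 56 of 67 genes, led by Med17 (69.26 and 80.53) and Med7 (55.47 and 70.31). The spliceosome had one at 44 of 54, led by Sf3a3 (74.86 and 82.73) and Sf3b1 (48.14 and 46.88). The proteasome had one at 32 of 39, led by Psmd3 (45.85 and 40.54) and Psmd8 (43.13 and 31.46). Autophagy genes named Atg had one at 13 of 17, led by Atg16l1 (61.43 and 90.58) and Atg5 (37.79 and 55.78). In these lists the share with a peak of the set ran from 76.5% (Atg genes) to 94.6% (complex I).

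**Figure D5:**
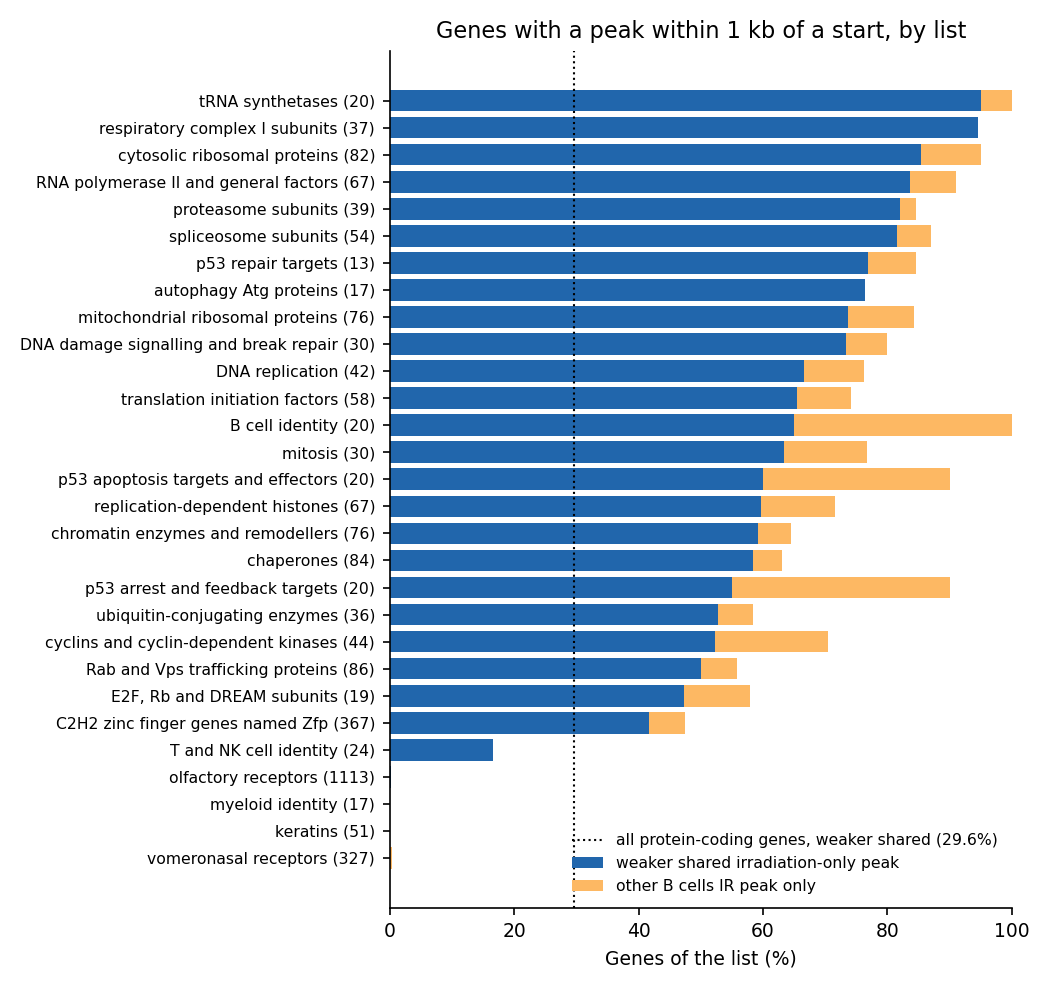
Percentage of the genes of each list (x axis, list size in brackets) with a weaker shared irradiation-only peak within 1 kb of a start (blue) or with another B cells IR peak only (orange). The dotted line is the 29.6% of all protein-coding genes with a peak of the set. The tRNA synthetases, complex I and the cytosolic ribosomal proteins stand at the top, and lists of receptors, keratins and myeloid genes at the bottom with few or none.

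In lists of more varied function the share was between 41.7% (Zfp genes) and 59.7% (histones), against 53.6% over the high CpG class. A peak of the set was found at 49 of 84 chaperone genes, led by Cct8 (50.05 and 52.17) and Dnajc16 (43.46 and 52.88), at 45 of 76 genes of chromatin enzymes and remodellers, led by Chd7 (50.65 and 20.38) and Kdm1a (45.85 and 54.35), and at 43 of 86 Rab and Vps genes of vesicle traffic, led by Rab21 (55.62 and 36.57) and Vps33a (54.71 and 53.49). It was found at 19 of 36 ubiquitin-conjugating enzymes, led by Ube2v2 (54.57 and 32.38) and Ube2e3 (49.09 and 36.14). Zinc finger genes named Zfp had one at 153 of 367, led by Zfp456 (93.57 and 87.73) and Zfp365 (87.24 and 64.51). Replication-dependent histone genes, which lie in clusters, had one at 40 of 67, led by Hist1h3e (45.63 and 34.35) and Hist1h1d (45.34 and 35.46).

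Among genes of DNA replication and of the cell cycle the share ran from 47.4 to 66.7%, against 53.6% over the high CpG class. DNA replication genes had a peak of the set at 28 of 42, led by Orc5 of the origin recognition complex (54.86 and 66.56) and Pold1, the catalytic subunit of DNA polymerase delta (39.11 and 22.96). Genes of mitosis had one at 19 of 30, led by the kinesin Kif23 (61.43 and 28.97) and the kinetochore gene Nuf2 (51.01 and 65.95). Cyclins and cyclin-dependent kinases had one at 23 of 44, led by Ccnl1 (86.28 and 79.26) and Ccnc (50.05 and 48.01), both of which work in transcription and RNA processing. Genes of E2F, Rb and DREAM, the complexes that repress cell cycle genes, had one at 9 of 19, led by Rbl2 (43.6 and 42.39) and Rb1 (43.36 and 43.57, midpoint at −939 bp from the start).

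Of 30 genes of damage signalling and break repair, 22 had a peak of the set (73.3%, interval 55.6 to 85.8%), 19 of them at CpG-rich starts. Over all genes of the high CpG class the share was 53.6%. The kinases that sense breaks had values of 40.68 in B cells IR against 48.69 in non-B cells IR at Atm, 50 and 48.01 at Atr, and 33.9 and 31.46 at Prkdc, whose peak also lies at the start of the replication gene Mcm4. The MRN complex that holds broken ends had 52.81 and 40.54 at Rad50, 45.85 and 52.93 at Nbn and 19.35 and 21.89 at Mre11a. The checkpoint kinases had 14.43 and 23.23 at Chek2 and 9.46 and 11.8 at Chek1. None of the 22 peaks held an unsplit element, which is near the share of 3.78% over the whole set.

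Several well-known target genes of p53 were kept out of the set by the limit on value or by the mock lists. Of 20 genes of arrest and feedback, 11 had a peak of the set and 7 had another B cells IR peak only: Btg2, Ccng1, Cdkn1a, Phlda3 and Trp53inp1, whose nearest peak was over the limit and overlapped a mock peak, and Gtse1 and Rchy1, whose peak was over the limit. Of the 11, the highest were Mdm4, an inhibitor of p53 (54.71 and 51.08), the stress-induced Sesn2 (39.82 and 32.71) and Gadd45a (38.36 and 37.25), and Trp53 itself (31.66 and 26.75). The midpoint of the Trp53 peak lay 997 bp after the start, close to the limit of 1 kb. Mdm2, the ubiquitin ligase that degrades p53, had values of 15.45 and 11.66, Ppm1d, a phosphatase that ends the response, 6.46 and 9.4, and the kinase Plk2 10.75 and 11.66. These values belong to peaks of the set alone, and a stronger peak of the same gene outside the set would not show here. The paper reports p53 binding induced by irradiation at Mdm2. Among the 11, only the Plk2 peak held an unsplit element, with 2 mismatches (3.78% over the whole set held one).

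The apoptosis list also lost genes to the limit on value or to the mock lists. Of 20 genes, 12 had a peak of the set and 6 had another B cells IR peak only, among them Aen, Bax and Bbc3, whose peak was over the limit and overlapped a mock peak, and Pmaip1, whose peak was over the limit. The highest of the 12 were Lrdd, which codes for a death domain protein (95.17 and 45.96, element with 2 mismatches), Ei24 (67.33 and 71.98, element with 3 mismatches, as also at Siva1), and the death receptors Tnfrsf10b (44 and 24.52) and Fas (38.81 and 35.07). The midpoint of the Siva1 peak lay 848 bp after the start. None of the other peaks of the 12 held an unsplit element (3.78% over the whole set held one). Effectors of the mitochondrial pathway had 19.47 and 28.97 at Cycs, which codes for cytochrome c, 14.1 and 12.13 at Apaf1 and 11.11 and 6.91 at Casp9. Bid had 6.46 and 7.74. Over the 12 the B cells IR median was 19.3 and the non-B cells IR median 14.5.

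Of 13 repair targets, 10 had a peak of the set, all at CpG-rich starts and none with an unsplit element (3.78% over the whole set). The highest were Polk, a polymerase that copies past damage (83.49 and 60.78), and Xpc, which recognises helix-distorting damage (38.4 and 36.01). Pcna, the sliding clamp of replication, had 23.44 and 25.85.

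The genes that define B cells were mostly at CpG-poor starts. All 20 genes of the list had a B cells IR peak within 1 kb of a start, and 13 had a peak of the set. Of these, 10 were in the low CpG class and none in the high class. The highest values were at Ms4a1, which codes for CD20 (76.3 and 81.97), Ciita, the activator of MHC class II genes (65.84 and 28.97), Pax5, the factor that fixes B cell identity (59.14 and 28.48), Spib (57.09 and 52.93) and Cr2 (50.99 and 26.19). Cd79b had 43.81 and 13.13. Over the 13 the median was 39.8 in B cells IR against 26.2 in non-B cells IR, and 8 had the higher value in B cells IR, against 47.2% of the whole set. The other 7 genes had a peak that overlapped a mock peak (Bank1, Blnk, Cd22, Cd74, Cd79a and Pou2af1) or had no non-B cells overlap (Btk and again Cd22).

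The set requires a B cells peak, and genes of other blood cells are given as counts. Of 24 genes of T and NK cell identity, 4 had a peak of the set (16.7%, interval 6.68 to 35.9%, which includes the background), all in the low CpG class: Cd2 (26.45 and 9.84), Il7r (25.25 and 20.65), Lat (24.07 and 31.46) and Cd5 (21.55 and 32.2). None of the other 20 had any B cells IR peak within 1 kb of a start, and 6 of these had a non-B cells IR peak, among them Cd28, Cd3d, Cd3g, Lck and Zap70. Of 17 myeloid genes none had a B cells IR peak and 1, Cd68, had a non-B cells IR peak. In the non-B cells IR list 18 of the 20 B cell genes had a peak, so the non-B cells list holds start sites of B cell genes as well, and the part of B cells left in the column's flow-through in these values was not tested.

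The families of olfactory receptors, vomeronasal receptors and keratins were almost free of peaks of the set. Of 1113 olfactory receptor genes 3 had a peak of the set, at Olfr433 (40.82 and 37.07), Olfr1410 (31.38 and 45.96) and Olfr1509 (12.62 and 6.46), with midpoints at −953, −710 and 958 bp from the start. None of 327 vomeronasal receptor genes and none of 51 keratin genes had one. Over all genes of the low CpG class the share was 5.45%. The interval for keratins, 0 to 7%, includes that share. Those for olfactory and vomeronasal receptors ended below it, at 0.789% and 1.16%.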

How the data were processed

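The deposited peak lists (BED) were made by the authors with BWA 0.6.2 (mm9) and MACS. Their value column is used as −log10 of the peak caller's p-value, as the deposited values themselves show; read depth is unknown. The stated p-value limit was not reflected in the column, whose lowest value in both irradiated wild-type lists was 5.27.

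Start sites were those of the 51733 transcripts annotated protein_coding in GENCODE vM1. Elements and motifs were searched in 600 bp windows, with at most 3 mismatches for the p53 element and 1 to 15 bases in a spaced one. Shares carry Wilson intervals and differences Newcombe intervals; with 1 library per group no test between conditions was made. Python 3.11.15, pandas 2.3.3, scipy 1.17.1 and pysam 0.24.0 were used, and the scripts were tested on simulated data. Named genes were the 3 peaks on each side of the value limit, the 2 highest of each of 29 gene lists, the 10 best elements, the 5 largest rank gaps each way, up to 8 genes of each p53 list and the extremes of CpG content. Motif examples left out chromosome 18. Genes named beyond these (in the damage signalling, B cell and T cell lists, the olfactory receptors, the mitochondrial genes, the highest non-B cells values and the motif examples) were chosen after their values were seen. The members and lists were chosen with earlier results of these data known. Some genes of the lists are counted but not reported here by name. Alternatives varied the start site, distance, value, overlap, mock distance, mismatches, element window, CpG class and divergent distance.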

Additional observations from a re-analysis of the deposited data

How the results depend on the processing

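Of 88 values recomputed under other settings, 20 moved out of the interval of the reported value and none reversed. The other 68 were shares, medians and rho within that interval, counts of peaks within 1.5 times of 6426 (5762 to 6417), and the difference in unsplit share between stronger and weaker peaks, which kept an interval above 0 but ran from 20.5 points (element within 100 bp of the midpoint) to 42.6 points (at most 4 mismatches), against 38.8. With only the first start of each gene, the median distance was 94 bp, 61.7% of midpoints were upstream, 27.8% of genes had such a peak and 18.1% of start sites had a divergent neighbour. With midpoints within 500 bp these were 72 bp, 68.1% and 27.7%, the unsplit element share was 3.26% and the high CpG share 75.6%. With values below 50, rho was 0.687 and the gene share 28%, and with values of at least 8 in both lists the gene share was 28.6%. At most 2 mismatches gave 1.03% unsplit and 8.7% spaced elements, at most 4 gave 11.1 and 61.6%, and elements within 100 bp of the midpoint 1.68 and 11.8%. Classing the whole 600 bp window gave a high CpG share of 83.3%, and a divergent limit of 500 bp 18.6%. The cause was not tested.

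No paired analysis was possible because there was a single library for every condition. Without replicates or read counts, intervals cover counting error over peaks or genes only. The mock libraries had a lower fitted background, and its part in which sites were called there was not tested. A motif match is a description of sequence, and neighbouring genes can share a peak.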
